A study of Mus musculus with 2 samples.

Results

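The transcription factors examined here are 10 genes that act in hematopoietic stem and progenitor cells, *Hlf*, *Mecom*, *Gfi1*, *Gfi1b*, *Lmo2*, *Tal1*, *Lyl1*, *Hhex*, *Nfe2* and *Ldb1*. They were chosen by name, and all 10 were found among the 20246 protein-coding genes with deposited values, with 17 RefSeq transcripts between them. RNA-seq had been performed on 1 library of *Ebf1* -/- pre-pro-B cells and 1 library of *Rag2* -/- pro-B cells, both on a C57BL/6 background. Cells lacking the transcription factor Ebf1 arrest before commitment to the B lineage, and cells lacking the recombinase subunit Rag2 arrest as committed pro-B cells. The pre-pro-B cells came from female fetal livers at mid-gestation, and the pro-B cells from adult male bone marrow. Both were grown on OP-9 stromal cells with 5 ng/mL of Il-7, and the pre-pro-B cells alone also received Scf and Flt3l at 10 ng/mL each. Genotype, sex, age, tissue and cytokines therefore cannot be told apart from the cell stage. With 1 library per stage, no difference given here has a replicate check, and none was tested for significance.

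The targeted genes were each lower in their own null library but not at 0, with *Ebf1* at 64.0 FPKM in its null cells and 273 in pro-B cells, and *Rag2* at 34.5 in pre-pro-B cells and 22.9 in its null cells. FPKM are fragments scaled to the length of the transcript and to the mapped fragments of the library. All 9 B lineage markers were higher in pro-B cells, *Igll1* among them with FPKM of 1.17 and 798. Of the 7 stem and progenitor surface genes at a mean FPKM of at least 1, 5 were lower in pro-B cells. Among all genes at that level 17.9% were lower and 12.2% higher. The 5 included *Kit* (107 and 0.377), *Flt3* (303 and 0.916) and *Cd34* (534 and 1.52). Of the other surface genes, *Slamf1* was higher (0.0187 and 5.75) and *Il7r* was within 2-fold (349 and 424). The number lower was 2 when each library had to reach 1 FPKM, since *Kit*, *Flt3* and *Ly6a* did so in pre-pro-B cells alone.

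As background, multipotent progenitors are held in an uncommitted state by a network of transcription factors in which Tal1 or Lyl1, basic helix-loop-helix proteins, pair with an E protein such as E2a (*Tcf3*) on E-box sites. Lmo2, a LIM-only protein, bridges this pair to Gata factors, and Ldb1 binds Lmo2 and self-associates, which can bring distant sites together. Gfi1 and Gfi1b are related zinc finger repressors that recruit the demethylase Lsd1 (*Kdm1a*) and CoREST. Hhex is a homeodomain protein needed for lymphoid progenitors, Nfe2 is the large subunit of a bZIP factor known for its role in platelet formation, and Hlf and Mecom (Evi1) are associated with long-term stem cells.

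Fewer of these genes reached 1 FPKM at the later stage. FPKM are per length, so levels can be compared between genes. In bulk RNA, fewer cells of a type and less RNA per cell cannot be told apart. Summed over the transcripts of each gene, 8 of the 10 reached 1 FPKM in the pre-pro-B library and 4 in the pro-B library, where 49.5% and 46.2% of all 20246 genes did. At 10 FPKM or above the counts were 6 and 2, and the share of all genes at exactly that level was not taken. Close to it, 73.0% of all genes lay below *Nfe2* (12.1 FPKM) in pre-pro-B cells. In pro-B cells 72.8% lay below *Gfi1* (10.7 FPKM). In pre-pro-B cells the order from the highest level down was *Ldb1* (72.5), *Hhex* (41.1), *Lmo2* (26.9), *Lyl1* (22.4), *Gfi1b* (16.2), *Nfe2* (12.1), *Gfi1* (2.86), *Tal1* (1.18), *Mecom* (0.103) and *Hlf* (0). In pro-B cells the order was *Ldb1* (36.4), *Gfi1* (10.7), *Gfi1b* (8.78), *Lyl1* (3.28), *Lmo2* (0.930), *Hhex* (0.739), *Tal1* (0.0501), *Mecom* (0.0383), *Nfe2* (0.0207) and *Hlf* (0). *Ldb1* was first in both orders, while *Hhex* moved from rank 2 to rank 6, *Nfe2* from rank 6 to rank 9 and *Gfi1* from rank 7 to rank 2. Neighbours in these orders were mostly not separable, since the intervals of the most abundant transcripts of *Ldb1*, *Hhex*, *Lmo2*, *Lyl1*, *Gfi1b* and *Nfe2* in pre-pro-B cells all overlapped.

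**Figure D1:**
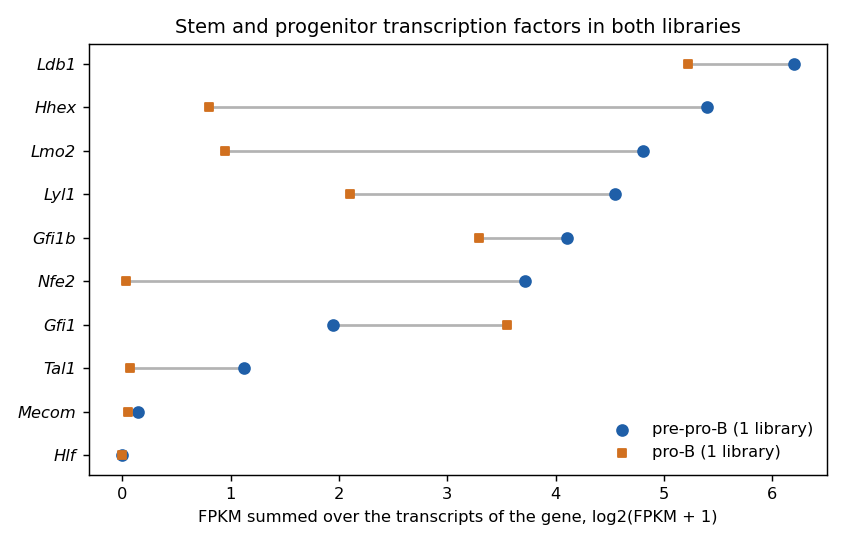
FPKM summed per gene, on a log2(FPKM + 1) axis, in the pre-pro-B library (circles) and the pro-B library (squares). *Gfi1* is the gene whose square lies to the right of its circle, and *Hhex*, *Lmo2*, *Lyl1* and *Nfe2* have the longest lines to the left.

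The change between the stages was taken as the log2 ratio of the FPKM in pro-B cells over that in pre-pro-B cells, with 1 added to each, and a gene was called higher or lower past 2-fold when its mean FPKM over the libraries was at least 1. The 7 members that met this level were *Gfi1*, *Gfi1b*, *Lmo2*, *Lyl1*, *Hhex*, *Nfe2* and *Ldb1*, while *Tal1*, *Mecom* and *Hlf* did not. Of the 7, 4 were lower in pro-B cells (*Hhex*, *Lmo2*, *Nfe2* and *Lyl1*), where 17.9% of 10129 genes were lower. *Gfi1* was higher, where 12.2% of genes were higher, and *Gfi1b* and *Ldb1* stayed within 2-fold. The median log2 change of the 7 was -2.45, and that of the 10129 genes was -0.13. *Hhex*, *Lmo2* and *Nfe2* met the level through pre-pro-B cells alone, and so had to differ to some degree. When each library had to reach 1 FPKM, *Gfi1*, *Gfi1b*, *Lyl1* and *Ldb1* were the members left. Of these, 1 (*Lyl1*) was lower and 1 (*Gfi1*) was higher, beside 11.3% and 10.4% of the genes that met that filter.

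**Figure D2:**
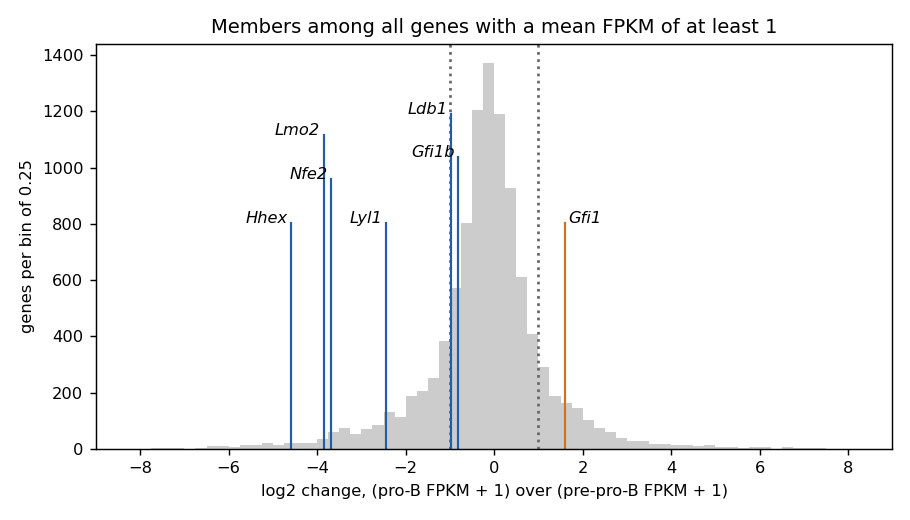
Histogram of the log2 change of the 10129 genes with a mean FPKM of at least 1 (grey, bins of 0.25), with the 7 members at that level as vertical lines, whose heights carry no value. Dotted lines mark 2-fold, and *Hhex* lies farthest to the left at -4.60.

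As examples of upstream sequence, the 250 bases before the annotated start are given for *Hhex*, *Lyl1*, *Gfi1* and *Gfi1b*. *Hhex* and *Lyl1* were lower in pro-B cells. Of the related repressors, *Gfi1* was higher and *Gfi1b* was within 2-fold. The sequences are those of RefSeq on GRCm38.p6, all read 5′ to 3′ along the gene. Capitals mark E-boxes (CANNTG) and GATA matches (GATAA or GATAG preceded by A or T, either strand). The *Hhex* window is chr19:37434591-37434840 on the plus strand, and that of *Lyl1* is chr8:84701207-84701456 on the plus strand. The *Gfi1* window is chr5:107725806-107726055 and the *Gfi1b* window is chr2:28621983-28622232, both on the minus strand.
Hhex: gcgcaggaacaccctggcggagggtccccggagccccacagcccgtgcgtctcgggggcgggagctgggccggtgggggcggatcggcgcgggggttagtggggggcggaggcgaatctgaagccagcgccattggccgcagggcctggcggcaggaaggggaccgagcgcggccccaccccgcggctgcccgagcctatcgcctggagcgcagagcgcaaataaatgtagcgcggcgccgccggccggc
Lyl1: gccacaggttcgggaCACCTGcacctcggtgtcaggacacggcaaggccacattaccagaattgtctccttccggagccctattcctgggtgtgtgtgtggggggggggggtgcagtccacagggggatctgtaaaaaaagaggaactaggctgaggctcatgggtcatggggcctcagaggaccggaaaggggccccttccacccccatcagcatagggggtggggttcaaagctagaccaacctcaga
Gfi1: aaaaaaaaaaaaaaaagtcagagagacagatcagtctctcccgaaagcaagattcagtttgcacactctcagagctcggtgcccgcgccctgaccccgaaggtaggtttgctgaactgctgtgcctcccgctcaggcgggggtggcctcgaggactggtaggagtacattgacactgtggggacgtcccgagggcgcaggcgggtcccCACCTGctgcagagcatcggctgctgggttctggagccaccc
Gfi1b: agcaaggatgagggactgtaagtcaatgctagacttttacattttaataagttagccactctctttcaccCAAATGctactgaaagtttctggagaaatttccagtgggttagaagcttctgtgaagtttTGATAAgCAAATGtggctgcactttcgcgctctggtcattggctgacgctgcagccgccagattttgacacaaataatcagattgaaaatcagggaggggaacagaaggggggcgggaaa

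The *Hhex* window held neither motif and had a GC content of 76.0%. *Lyl1* and *Gfi1* each had 1 E-box with the same letters (CACCTG), at -235 to -230 and at -42 to -37 from the start. *Gfi1b* had a GATA match at -120 to -115 and 2 E-boxes (CAAATG), the nearer of which was separated from it by 1 base, and its GC content was 44.4%. RefSeq windows were found for 8 of the 10 genes, 13 windows in all, and *Lmo2* and *Nfe2* had none. Each of the 13 windows with the 50 bases after it matched mm9 once, and 6 of them ended at the start of a deposited locus, among them the 4 shown. A GATA match was found in 5 of the 13 windows, and in 26.5% of 32851 windows of this length. An E-box was found in 7 of the 13 and in 66.2% of all windows. The composite of CTG, a gap of 8 or 9 bases and GATA, the spacing bound by Tal1 and Gata factors together, occurred in *Gfi1b* (at -131 to -116, overlapping its GATA match) and in a *Tal1* window (at -140 to -126), and in 4.01% of all windows. The *Tal1* window lay 3101 bases from the start of the deposited *Tal1* locus. These matches describe letters and not binding.

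**Figure D3:**
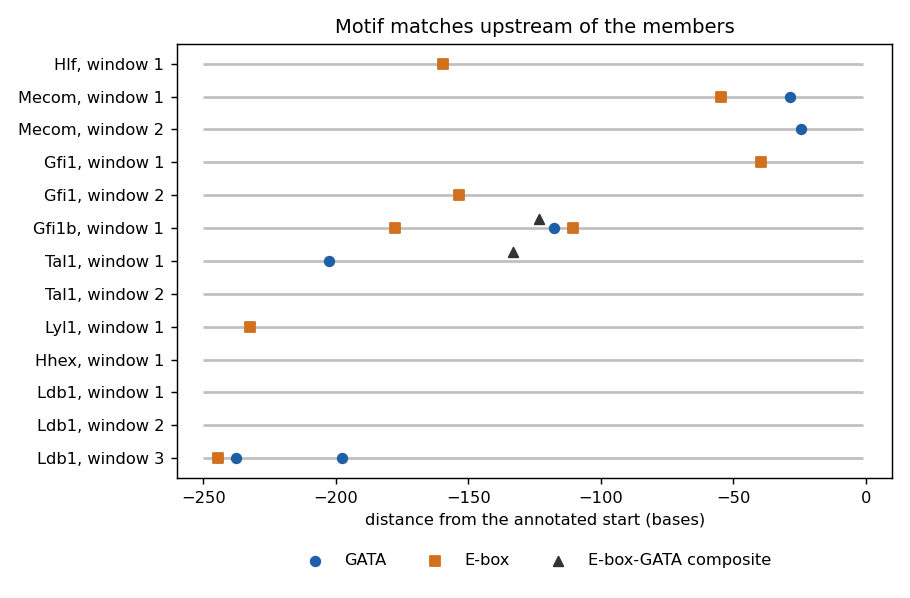
Positions of the motif matches in the 13 windows of 250 bases upstream of annotated starts, in bases from the start. Circles are GATA matches, squares are E-boxes and triangles are composites, and the windows of *Hhex*, *Ldb1* 1 and 2 and *Tal1* 2 hold none.

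*Hhex* (chromosome 19 of mm9, 37507377 to 37515218, plus strand) had the largest change of the 7 genes at a mean FPKM of at least 1. Its single transcript, NM_008245, was at 41.1 FPKM in the pre-pro-B library, against 0.739 FPKM in the pro-B library. The 95% intervals that Cuffdiff gave with these values, 3.79 to 94.5 and 0 to 2.65, did not overlap. Such intervals follow each transcript's FPKM in parentheses hereafter, the pre-pro-B library first. The FPKM was 55.6-fold lower in pro-B cells, a log2 change of -4.60 with 1 added, and 1.16% of the 10129 genes had a lower one. At the approximately 90000000 reads per library given in the labels, these FPKM correspond to about 6549 and 118 fragments.

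*Nfe2* (chromosome 15, 103078643 to 103088834, minus strand) was the other member whose intervals did not overlap. NM_008685 was at 12.1 FPKM (0.450 to 31.8) in the pre-pro-B library and at 0.0207 FPKM (0 to 0.0948) in the pro-B library. The pro-B value corresponds to about 3.11 fragments, next to the 3 fragments (FPKM 0.0200) that a count of 0 allows, so the pro-B level is near the limit of detection at this depth. The log2 change was -3.69 with 1 added to each FPKM, and it depended on that choice, at -6.66 with 0.1 added and -9.19 with nothing added. Non-overlapping intervals were uncommon among all transcripts with a mean FPKM of at least 1. Of 12151 such transcripts 3.09% lay lower in pro-B cells without overlap and 1.41% lay higher, and of the 11 member transcripts at that level 2 lay lower and 0 higher. Both that lay lower met the level through pre-pro-B cells alone, so nothing is read from their count.

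*Lmo2* (chromosome 2, 103798143 to 103822035, plus strand) has 4 RefSeq transcripts, and 1 of them held most of its signal. NM_001142335 was at 22.9 FPKM (0.722 to 48.6) in the pre-pro-B library and at 0.929 FPKM (0 to 2.74) in the pro-B library. It made up 85.2% of the *Lmo2* FPKM in the pre-pro-B library and 99.9% in pro-B cells, and its intervals overlapped. NM_001142336 and NM_008505 had FPKM of 3.01 and 0.974 in pre-pro-B cells, and both were listed at 0 in pro-B cells. The remaining transcript, NM_001142337, was below 0.01 in both libraries, which is worth less than 1 fragment. For the gene as a whole the FPKM was 26.9 and 0.930, 28.9-fold lower in pro-B cells, with a log2 change of -3.85. Of the 4 transcripts, none was higher in pro-B cells. *Lmo2*, like *Lyl1* and *Ldb1*, overlaps a gene on the opposite strand, and the reads were aligned with a strand-specific setting.

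*Ldb1* (chromosome 19, 46107083 to 46119704, minus strand), the partner of *Lmo2*, had transcripts of 2103 and 2288 bases that moved in parallel. NM_001113408 was at 45.7 FPKM (1.70 to 101) in the pre-pro-B library and at 23.4 FPKM (0.651 to 52.0) in the pro-B library. NM_010697 was at 26.7 FPKM (0.0692 to 68.0), then 13.0 FPKM (0.0144 to 34.1). The first made up 63.1% of the gene's FPKM in the pre-pro-B library and 64.3% in pro-B cells. Summed, *Ldb1* was 1.99-fold lower in pro-B cells, with a log2 change of -0.97 just inside the 2-fold limit. Rescaling both libraries to TPM moved it to -1.07, past the limit. In pre-pro-B cells the FPKM of *Ldb1* was 2.69 times that of *Lmo2*, and in pro-B cells it was 39.2 times. *Ldb1* thus made up 37.1% of the summed FPKM of the 10 genes in the pre-pro-B library and 59.8% in pro-B cells.

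Of the related helix-loop-helix genes, *Lyl1* was the more abundant in both stages. *Lyl1* (chromosome 8, 87225356 to 87228614, plus strand) was at 22.4 FPKM (2.48 to 42.4) in the pre-pro-B library and at 3.28 FPKM (0 to 7.72) in the pro-B library, so that the intervals overlapped. It was 6.84-fold lower in pro-B cells, with a log2 change of -2.45 on the scale with 1 added, which understates the change of low genes. The gene remained above an FPKM of 1 in pro-B cells, unlike *Lmo2*, *Hhex* and *Nfe2*. *Tal1* (chromosome 4, 114729031 to 114744360, plus strand) was at 1.18 FPKM (0 to 3.39) in the pre-pro-B library and at 0.0501 FPKM (0 to 0.180) in the pro-B library. These correspond to about 442 and 18.8 fragments over its transcript of 4161 bases, and the intervals overlapped. Its log2 change of -1.05 was not called because the mean FPKM was 0.615. The FPKM of *Lyl1* was 19.0 times that of *Tal1* in the pre-pro-B library and 65.5 times in pro-B cells.

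*Gfi1* was higher in pro-B cells, *Gfi1b* was within 2-fold, and their summed FPKM was nearly level. *Gfi1* (chromosome 5, 108145674 to 108155056, minus strand) summed to 2.86 FPKM in the pre-pro-B library and 10.7 FPKM in the pro-B library, 3.74-fold higher, with a log2 change of 1.60. Both of its transcripts were higher in pro-B cells. NM_010278 was at 1.89 FPKM (0 to 5.41), then 4.84 FPKM (0 to 13.1). NM_001267621 was at 0.968 FPKM (0 to 3.50), then 5.86 FPKM (0 to 15.3), so the intervals of both transcripts overlapped between the stages and reached 0. *Gfi1b* (chromosome 2, 28464970 to 28477502, minus strand) summed to 16.2 FPKM in the pre-pro-B library and 8.78 FPKM in the pro-B library, a log2 change of -0.82, within 2-fold. The *Gfi1b* transcripts did not move together. NM_008114 was at 13.1 FPKM (0.0741 to 29.5) in the pre-pro-B library and at 3.32 FPKM (0 to 10.8) in the pro-B library, a log2 change of -1.70. NM_001160406 was at 3.13 FPKM (0 to 11.7), then 5.45 FPKM (0 to 14.6), a log2 change of 0.64. The share of the gene's FPKM in NM_008114 was 80.7% in the pre-pro-B library and 37.9% in pro-B cells, with overlapping intervals for both transcripts, and Cuffdiff divides reads that fit both. *Gfi1b* was the more abundant paralog in pre-pro-B cells, by 5.67 times, and *Gfi1* in pro-B cells, by 1.22 times. Their summed FPKM was 19.1 in the pre-pro-B library and 19.5 in pro-B cells.

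**Figure D4:**
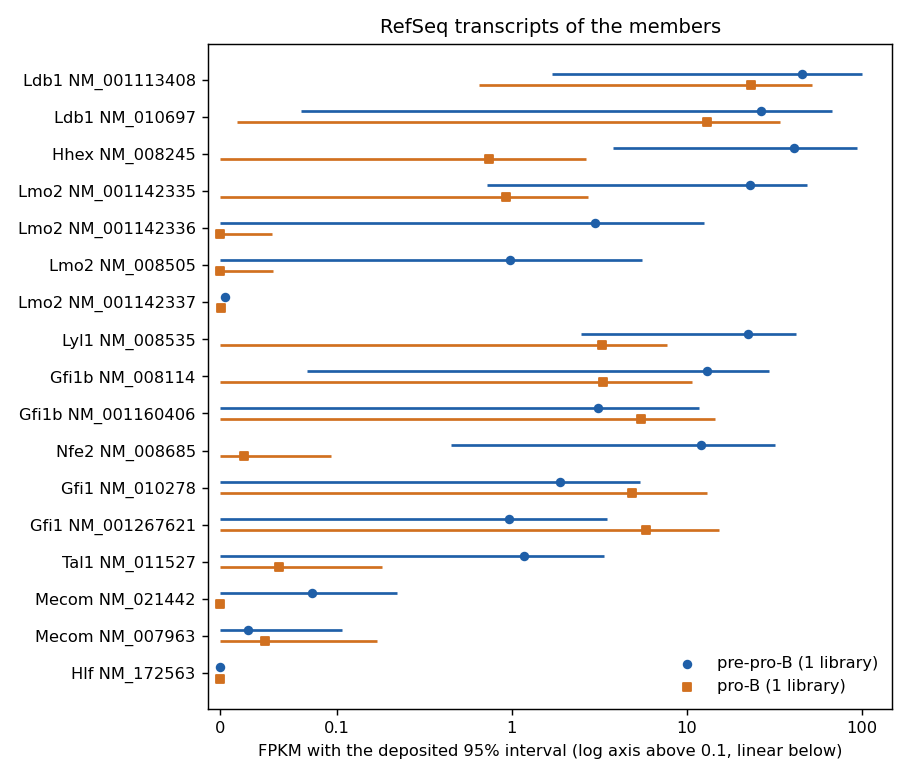
FPKM of each of the 17 RefSeq transcripts with Cuffdiff's 95% interval, in the pre-pro-B library (circles) and the pro-B library (squares). The axis is logarithmic above 0.1 and linear below it, and the intervals are apart for *Hhex* and *Nfe2* among transcripts with a mean FPKM of at least 1.

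The factors of long-term stem cells were at low levels in both stages. *Hlf* was last in both orders, and *Mecom* was at rank 9 in pre-pro-B cells and rank 8 in pro-B cells. *Mecom* (chromosome 3, 29850221 to 30446930, minus strand) had 2 RefSeq transcripts. NM_007963 was at 0.0241 FPKM (0 to 0.107) in the pre-pro-B library and at 0.0383 FPKM (0 to 0.169) in the pro-B library. NM_021442 was at 0.0791 FPKM (0 to 0.221) in the pre-pro-B library and was listed at 0 in pro-B cells. These values correspond to between 7.65 and 15.3 fragments, and no direction is read from them. *Hlf* (chromosome 11, 90197849 to 90252231, minus strand), with 1 transcript of 5665 bases, was listed at 0 in both libraries. At the labelled read number a count of 0 allows an FPKM of up to 0.00588, and at the smaller number of aligned reads it allows more.

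The partners of the Tal1, Lmo2 and Ldb1 complex did not share 1 direction. Of 15 partner genes, 10 had a mean FPKM of at least 1. Of the 10, 5 were lower in pro-B cells, 2 were higher and 3 were within 2-fold, with a median log2 change of -0.70. Among all genes at that level 17.9% were lower and 12.2% higher. When each library had to reach 1 FPKM, 3 partners were lower and 2 higher, beside 11.3% and 10.4% of the genes that met that filter. The E protein genes were among those not lower. *Tcf3* (E2a) was at 42.4 FPKM in the pre-pro-B library, against 97.5 FPKM in the pro-B library, *Tcf4* had 35.3 and 75.8, and *Tcf12* had 54.1 and 59.6. With TPM scaling only 1 of the partner genes was higher. The genes with the lowest changes were *Cbfa2t3* (Eto2, a co-repressor of the complex), with FPKM of 9.52 and 0.0691, *Ssbp2*, which stabilises Ldb1, with 22.6 and 2.51, and *Gata3*, with 2.64 and 0.0392. *Gata2* was listed at 0 in both libraries, and *Gata1* was at 0.0532 FPKM in the pre-pro-B library and was listed at 0 in pro-B cells. Of these Gata genes, *Gata3* alone reached 1 FPKM, in pre-pro-B cells.

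The co-repressors used by Gfi1, Gfi1b and Mecom were mostly within 2-fold, as were most genes. All 12 listed genes had a mean FPKM of at least 1, of which 10 were within 2-fold, 2 were lower and 0 were higher in pro-B cells, with a median log2 change of -0.17. Of all genes at that level 69.9% were within 2-fold, 17.9% lower and 12.2% higher. *Ctbp1*, which binds Mecom, was at 90.1 FPKM in the pre-pro-B library, against 75.4 FPKM in the pro-B library, and the deacetylase gene *Hdac2* had 70.8 and 62.8. The lower genes were *Hdac1*, with 11.2 and 1.53, and *Rcor2*, a CoREST paralog, with 23.6 and 5.14, and the intervals of both overlapped between the stages.

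Among 11 bZIP relatives of Hlf and Nfe2 and small Maf partners of Nfe2, 10 had a mean FPKM of at least 1. Of the 10, 5 were lower in pro-B cells, 5 were within 2-fold and 0 were higher. Among all genes at that level 17.9% were lower and 12.2% higher. With 1 FPKM required of each library, 3 were lower, beside 11.3% of the genes that met that filter. The small Maf gene *Mafk* was at 25.6 FPKM (1.80 to 49.5) in the pre-pro-B library and at 10.7 FPKM (0.545 to 20.9) in the pro-B library, and *Maff* had 3.72 and 0.271. *Nfil3*, a relative of Hlf that represses through the same sites, had 16.6 and 0.299. The Nfe2 relatives *Nfe2l2* (40.6 and 52.4) and *Bach2* (24.6 and 38.6) were within 2-fold. *Nfe2* was thus low in pro-B cells while its partner *Mafk* remained above an FPKM of 10.

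Of 21 other stem and progenitor regulators, 17 had a mean FPKM of at least 1. Of the 17, 8 were lower, 1 was higher and 8 were within 2-fold, with a median log2 change of -0.90. Among all genes at that level 17.9% were lower and 12.2% higher. With 1 FPKM required of each library, 4 were lower and 0 higher, beside 11.3% and 10.4% of the genes that met that filter. *Hoxa9* was at 39.9 FPKM (8.12 to 71.6) in the pre-pro-B library and at 0.0655 FPKM (0 to 0.191) in the pro-B library. *Meis1*, its homeodomain partner, had 45.9 and 0.231, and the chromatin protein gene *Hmga2* was at 44.0 FPKM (11.1 to 77.0), then 0.328 FPKM (0 to 0.951). *Pbx3* was the higher gene, with an FPKM of 0.0268 and 12.3. *Myb* (280 and 431) and *Msi2* (186 and 120) were within 2-fold. Over the 59 genes of these lists together, 49 had a mean FPKM of at least 1. Of the 49, 20 were lower and 3 were higher in pro-B cells, with a median log2 change of -0.66. All genes at that level had a median of -0.13, with 17.9% lower and 12.2% higher. With 1 FPKM required of each library, 12 were lower and 2 higher, beside 11.3% and 10.4% of the genes that met that filter.

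**Figure D5:**
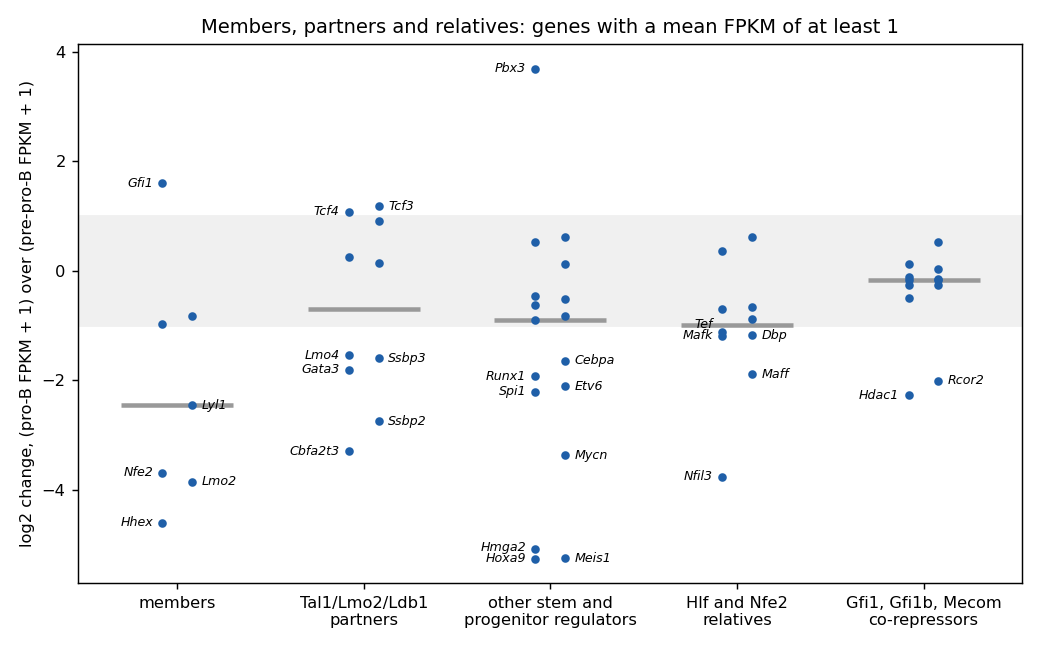
The log2 change of each gene with a mean FPKM of at least 1, for the members and 4 lists of partners, relatives and other regulators, with the median of each list as a grey bar and the range within 2-fold shaded. Genes past 2-fold are named, and the median of the co-repressors lies closest to 0, at -0.17.

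For each of the 7 members, the gene with the most similar pair of levels was taken from 77 genes of all lists, by the distance between log2(FPKM + 1) values over the 2 libraries. With only 2 libraries this describes a level and a difference and nothing more. The nearest gene to *Hhex* was *Hmga2* (distance 0.40) and to *Nfe2* it was the mast cell protease gene *Cpa3* (0.20). *Lyl1* was nearest to *Spi1* (0.22), which encodes PU.1, *Lmo2* to *Pdgfrb* (0.87), *Gfi1* to *Blk* (0.39), *Gfi1b* to *Bach1* (0.24) and *Ldb1* to *Bmi1* (0.43).

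Markers of other cells were read beside these differences. *Nfe2*, *Gfi1b*, *Tal1* and *Lmo2* are also expressed in erythroid cells and megakaryocytes. Of 14 markers of those cells in the files, 3 had at least 1 FPKM in the pre-pro-B library and 0 did in pro-B cells. Among all genes 49.5% and 46.2% did, so fewer of these markers reached that level than of genes in general. The 14 summed to 5.79 and 0.457 FPKM. The 3 are genes of megakaryocytes and platelets, *Gp9* (2.64 FPKM, then listed at 0), *Gp1bb* (1.43, then listed at 0) and *Itga2b* (1.18 and 0.147), of which *Gp9* met the mean level and was lower. Their part in the differences was not tested. The alpha globin gene *Hba-a1*, the red cell membrane gene *Slc4a1* and the platelet factor gene *Pf4* were listed at 0 in both libraries. Of 6 mast cell and basophil markers, 5 were listed at 0 in both libraries, and *Cpa3* had an FPKM of 10.5 and 0.0296. Of 9 myeloid markers in the files, 4 had a mean FPKM of at least 1. All 4 were lower in pro-B cells, beside 17.9% of genes at that level. With 1 FPKM required of each library, 2 were lower, beside 11.3% of the genes that met that filter. The 9 summed to 525 and 7.80 FPKM, of which *Tyrobp* accounted for 463 and 1.28 and *Mpo* for 35.7 and 0.122. *Elane* and *Ctsg* were listed at 0 in both libraries. Of 6 T lineage markers, *Cd3g* alone met the level, with 36.8 and 0.0351. Of 9 stromal markers, 4 met the level. *Col1a2* (0.707 and 2.82) and *Cxcl12* (0.618 and 2.92) were higher in pro-B cells, *Sparc* (1.13 and 2.81) was within 2-fold and *Pdgfrb* (15.9 and 0.377) was lower. Among all genes at that level 12.2% were higher and 17.9% lower. The higher genes met the level through pro-B cells alone. With 1 FPKM required of each library, 0 were higher and 0 lower, beside 10.4% and 11.3% of the genes that met that filter. *Dcn* was listed at 0 in both libraries. The list summed to 19.1 and 11.5 FPKM, most of the first in *Pdgfrb*, while its median log2 change was 1.00. Of 5 genes of fetal origin, 2 met the level, *Igf2bp3* (63.9 and 1.61) and *Hmga2*, which is also among the regulators above. Both were lower in pro-B cells, beside 17.9% of genes at that level. With 1 FPKM required of each library, 1 was lower (*Igf2bp3*), beside 11.3% of the genes that met that filter. The 2 genes carried most of the sums of 110 and 2.00, with *Lin28b* at 0.152 and 0. The part of myeloid cells and of fetal origin in the differences was not tested.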

How the data were processed

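RNA was depleted of rRNA and small RNAs, and strand-specific libraries were sequenced as single 97 bp reads, approximately 90000000 per library per the labels. The authors trimmed the reads, aligned them to mm9 with strand set in TopHat (1.5 in the submitters' processing notes) and estimated the deposited FPKM of each RefSeq transcript with Cuffdiff 2.1.1, using multi-read and fragment bias correction and no scaling between libraries. Cuffdiff supplied 95% intervals with each FPKM. It was run with blind dispersion, which models the spread with both libraries pooled as if they were replicates. A further deposited table of the authors' own comparison (fold changes, test statistics, p-values and calls) was not used, nor were its 2 columns of per-sample values.

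Of 30485 transcripts, 26968 were protein-coding, and RefSeq names (GRCm38.p6) were matched to 26169 of 26580 accessions. FPKM were summed per gene. Log2 changes used a pseudocount of 1. A gene was called past 2-fold at a mean FPKM of at least 1. All 17 member transcripts had the status OK in both libraries. Gene coordinates are those of GENCODE vM1 on mm9. Fragments were approximated from FPKM, length and the labelled read number, which exceeds the aligned reads, so they are upper estimates covering counting error only. The FPKM given as worth 3 fragments are lower estimates for the same reason. The members and lists were chosen with earlier results of these data known. Genes named from the lists were chosen from up to 3 with the largest and 3 with the lowest change past 2-fold and up to 2 of the highest mean within 2-fold, with the nearest gene to each member, and others were named as marker or partner genes of the lists after their values were seen. No test was run, because each group had 1 library. The scripts, in Python 3.11.15 with numpy 2.4.6, pandas 2.3.3 and matplotlib 3.10.9, were tested on simulated data. Other pseudocounts, filters, scalings and transcript choices were tried.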

Additional observations from a re-analysis of the deposited data

How the results depend on the processing

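The 4 members lower and the 1 higher in pro-B cells were counted again under 7 alternatives. Their number lower was 4 or 5 except when each library had to reach 1 FPKM, with 1 lower member then, and 12 lower genes of the 4 lists of partners and regulators in place of 20. With that filter 11.3% of the genes left were lower, and with no filter 9.94% of all genes were lower and 6.34% higher, because genes at low levels then entered the total. The number of members higher was 1 under every alternative. Of the single members, *Ldb1* passed 2-fold with TPM scaling (-1.07) and *Gfi1b* when its most abundant transcript stood for the gene (-1.70), and no direction was reversed among the 7 members. TPM and median-ratio scaling shifted all log2 ratios by -0.09 and 0.09. Of the recounts of single lists, 151 stayed within 1.5 times and 17 did not. No paired analysis was possible because each group had 1 library. With 1 library per stage, the intervals of Cuffdiff are the only error available. Under blind dispersion their width can include the difference between the libraries itself. An overlap therefore does not weigh that difference against an independent error. The intervals hold no spread between cultures or animals of the same stage.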

Other observations

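The deposited interval of the *Lmo2* transcript NM_001142337 ran from 0 to 0 in both libraries although 0.00385 FPKM (pre-pro-B) and 0.000712 FPKM (pro-B) were listed, so these intervals did not hold their own values.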
